A study of Mus musculus with 13 samples.

Results

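The genes described here are 10 members of the MHC class I antigen presentation pathway, taken by symbol. They are the class I heavy chains H2-K1, H2-D1, H2-Q4, H2-Q6, H2-Q7 and H2-T23, their shared light chain B2m, the peptide transporter subunit Tap1 and the immunoproteasome subunits Psmb8 and Psmb9. Of the 33432 named genes in the deposited table, 9 were members, and Psmb9 was not analysed here. All 9 were among the 13118 genes tested. RNA-seq had been run on mesenchymal stromal cells (MSCs), the matrix-making connective-tissue cells that support blood formation, sorted out of a mixture of marrow and compact bone cells from C57BL/6 mice. The 13 libraries were 4 recovered, 6 pre-leukemic and 3 healthy. Recovered libraries match the protocol's pre-leukemic mice given MSCs, pre-leukemic libraries the mice in that state without this treatment, and healthy libraries the control mice. The sources used here do not give the sort markers, the age of the mice, what made them pre-leukemic or whether each library came from its own animal. The p-values therefore cover the spread between these libraries, which may be technical.

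Class I molecules show fragments of a cell's own proteins to CD8 T cells and to natural killer cells. The proteasome cuts proteins into peptides, the Tap1 and Tap2 transporter moves them into the endoplasmic reticulum, and there they are loaded onto a heavy chain bound to B2m. Interferons induce most genes of the pathway, through factors that bind interferon-response elements in their promoters. Promoters of the pathway can also hold kappa B elements, which other factors bind. The immunoproteasome swaps the catalytic subunits Psmb5, Psmb6 and Psmb7 for Psmb8, Psmb9 and Psmb10. Class I is made by nearly all nucleated cells and in large amounts by leukocytes.

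The promoters of 5 of the 6 heavy chains, all but H2-T23, hold such elements in nearly the same letters. The RefSeq table of GRCm38.p6 promoters held all 10 members, and 250 bases upstream of each start were searched on both strands for 3 motifs. They were an interferon-stimulated response element (GAAA, any 2 bases, GAAA), an interferon regulatory factor element (GAANTGAAA) and a kappa B element (GGG, any 3 bases, T, any base, CC). Among 32851 promoters, 2.98% held the first, 1.5% the second and 14.9% the third, and the second can overlap the first. A kappa B element was found in 8 members, an interferon-type element in 7 and both kinds in 6, against 0.557% of all promoters with both kinds. These members are not separate finds. The kappa B elements of Tap1 and Psmb9 are the same bases read from either strand, and the 5 heavy chains have nearly the same letters. Psmb8 held none of them in its window, chr17:34197945-34198194. That window lies inside the longer GENCODE gene, which starts at 34197721, and bases upstream of that start were not searched. The Psmb9 window also lies inside its GENCODE gene. The stretches below, of 30 bases each, are shown because the 5 heavy chains that share the arrangement can be compared letter by letter, and because B2m and H2-T23 hold a different one. They read 5′ to 3′ along the gene, and capitals mark the matched elements.
H2-K1, chr17:34000429-34000458, minus strand: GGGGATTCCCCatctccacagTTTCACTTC
H2-D1, chr17:35262923-35262952, plus strand: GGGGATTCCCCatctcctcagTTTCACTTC
H2-Q4, chr17:35379443-35379472, plus strand: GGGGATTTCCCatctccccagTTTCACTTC
H2-Q6, chr17:35424677-35424706, plus strand: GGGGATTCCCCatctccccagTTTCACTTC
H2-Q7, chr17:35439022-35439051, plus strand: GGGGATTCCCatctccccagTTTCACTTCt
B2m, chr2:122147548-122147577, plus strand: GAAACTGAAAatgGGAAAGTCCCtttgtaa
H2-T23, chr17:36032796-36032825, minus strand: TTTCTCTTTCataaagacacaaatgatgca
In the first 5 promoters a kappa B element was followed by the interferon regulatory factor element on the other strand. Counted from the first kappa B match along the gene, the gap was 10 bases in H2-Q7 and 11 in the others. In those others an overlapping kappa B match reaches further, so 10 lower-case bases lie between the capitals in every stretch of the 5. The spacing of 10 or 11 bases was read from the members themselves, and 6 of 32851 promoters (0.0183%) held it, all of them promoters of these 5 genes. The H2-D1 and H2-T23 stretches lie upstream of the RefSeq start and inside the 5′ UTR of a longer GENCODE transcript. Tap1 and Psmb9 are transcribed away from each other, and their upstream windows overlapped by 225 bases. A match is a description of letters and says nothing of binding in these cells.

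Levels are in FPKM, the deposited unit, in which fragments are divided by transcript length and by the size of the library. Depth was read from the steps between low values, and 1 read on 1 kb was worth 0.348 to 0.64 FPKM in recovered, 0.166 to 0.243 in pre-leukemic and 0.318 to 0.386 in healthy libraries. Healthy 1 and healthy 3 differed by a chi-square per gene of 1.22 over genes of 10 to 100 reads (p = 0.00116) and 1.21 over genes of 100 to 1000 reads (p = 0.0212), slightly above the counting noise, while the other 23 pairs within groups reached at least 10 and 22. The rule set beforehand merged them only if they differed by no more than sampling noise, and otherwise kept 13 separate libraries. Their mean was counted as 1 sample all the same, a departure from that rule. This leaves 4 recovered, 6 pre-leukemic and 2 healthy samples. With 13 separate libraries 767 genes were called in recovered against healthy samples, against 329 in the fit used here. The second principal component set recovered 3 apart. Transcripts of immunoglobulin genes took 0.0059 to 0.134% of all FPKM in recovered, 54.9 to 80.5% in pre-leukemic and 0.0187 to 0.0301% in healthy libraries.

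Of 12 stromal markers, among them Cxcl12 and Pdgfra, 9 fell and none rose in pre-leukemic against healthy samples, and 11 rose and none fell in recovered against pre-leukemic samples. Their summed level was 2310 to 3250 FPKM in recovered, 96.2 to 346 in pre-leukemic and 4360 to 5280 in healthy libraries, and none of the 12 was at 0 in every library of a group. Cxcl12, the stromal chemokine that holds blood stem cells in marrow, was at 497.4 to 910.1 FPKM in recovered, 6.75 to 123.6 in pre-leukemic and 369 to 508 in healthy libraries. All 12 pan-leukocyte markers rose in pre-leukemic against healthy samples, and their sum was 76.6 to 287 FPKM in recovered, 2740 to 3390 in pre-leukemic and 127 to 166 in healthy libraries. Among all genes tested, 14.2% were called higher and 13.1% lower in pre-leukemic against healthy samples. In recovered against pre-leukemic samples 14.8% were called higher and 25.1% lower. Ptprc, the leukocyte antigen CD45, was at 0.365 to 16.4 FPKM in recovered, 80.7 to 154.9 in pre-leukemic and 0.0798 to 1.25 in healthy libraries, the highest recovered value being that of recovered 2. The sum of all pan-leukocyte markers in recovered 2 was 82.3 FPKM. Plasma cell markers summed to 78 to 164 FPKM in recovered, 46400 to 72500 in pre-leukemic and 144 to 179 in healthy libraries, and Prdm1 and Tnfrsf17 were at 0 in every recovered and healthy library. Most of the pre-leukemic sum was Igj, at 44480 to 69250 FPKM, which is also counted among the immunoglobulin genes above. All 7 plasma cell markers tested rose in pre-leukemic against healthy samples. Sdc1 rose least (1.10 ± 0.38, limma, adjusted p = 0.043), a call kept in 17 of 25 alternatives. Monocyte and macrophage markers summed to 16.2 to 62 FPKM in recovered, 3410 to 5160 in pre-leukemic and 19.1 to 23.6 in healthy libraries, and T and natural killer cell markers to 1.24 to 77.5, 323 to 520 and 16.6 to 31.9 FPKM in the same groups. Most of the pre-leukemic monocyte and macrophage sum was Ly6c2, at 2135 to 3728 FPKM. Of 7 markers of that list tested, 5 rose in pre-leukemic against healthy samples, while Csf1r (-0.27) and Cd68 (1.66) were not called. Emr1, too low to be tested, was at 0.25 FPKM at most. Neutrophil markers, of which 6 of 8 rose and none fell in pre-leukemic against healthy samples with a median change of 8.37, summed to 1.52 to 590 FPKM in recovered, 2900 to 14200 in pre-leukemic and 54.6 to 89 in healthy libraries. Some markers, such as Ngp and Retnlg, entered the test only through the pre-leukemic libraries, which favoured their direction in advance. The pre-leukemic libraries therefore held markers that go against the MSC label. The part of leukocyte RNA in the differences of the members below was not tested. In bulk RNA, fewer cells of a type and less RNA per cell cannot be told apart.

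The first comparison asked how MSCs of pre-leukemic mice differ from those of control mice. All 9 members rose in pre-leukemic against healthy samples, where 14.2% of all genes tested were called higher and 27.3% were called in either direction. In all 9 every pre-leukemic sample lay above every healthy sample, as for 24.9% of all genes. Changes are differences of log2(FPKM + 1) from limma, with standard errors and Benjamini-Hochberg adjusted p-values over all genes tested, called under 0.05, and this scale understates changes of genes with low values. The median member change was 3.81, against 0.20 for all genes. On the TPM scale each library is divided by its summed FPKM, the median of all genes moved by -1.28, and 791 genes were called higher and 4200 lower, against 1858 and 1725 on the FPKM scale. There 6 of 9 members were called higher. H2-D1, H2-T23 and Tap1 lost the call, and the change of H2-T23 turned negative.

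Whether the pattern was still present after MSC treatment was the second comparison. All 9 members fell in recovered against pre-leukemic samples, where 25.1% of all genes were called lower and 40.0% were called in either direction. No recovered sample reached the pre-leukemic range for any of the 9, as for 16.5% of all genes. The median member change was -2.79, against -0.41 for all genes. On the TPM scale the median of all genes moved by 0.99, and 3768 genes were called higher and 1213 lower, against 1945 and 3299 on the FPKM scale. There H2-K1, H2-Q6, H2-Q7, B2m, Tap1 and Psmb8 were called lower and H2-D1, H2-Q4 and H2-T23 were not, the change of H2-D1 being positive there. Both comparisons share the pre-leukemic samples, so their values are given side by side and are not independent.

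Recovered against healthy samples was the third comparison. H2-K1 was the 1 member called higher of 9, where 0.518% of all genes were called higher, and no member was called lower, where 1.99% were called lower and 2.51% in either direction. H2-K1, H2-D1, H2-Q4, H2-Q6 and B2m were above the healthy range in every recovered sample, as were 7.28% of all genes. The median member change was 0.68, against -0.08 for all genes. With 13 separate libraries H2-K1, H2-D1, H2-Q4, H2-Q6, H2-Q7 and B2m were called higher, where 231 of 13118 genes were called higher.

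**Figure D1:**
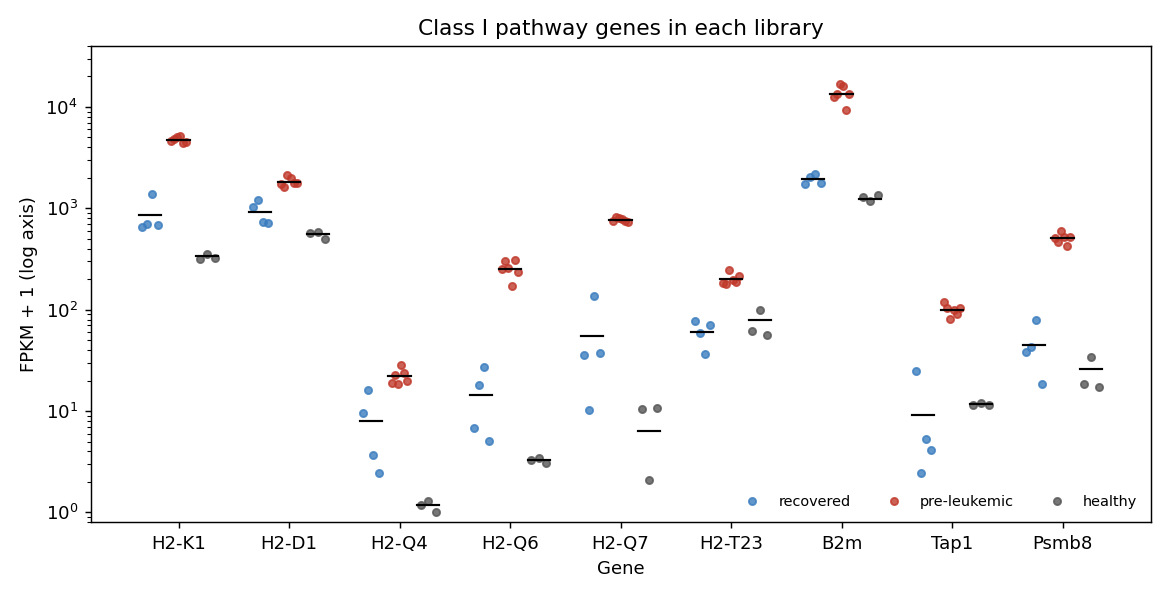
FPKM + 1 of the 9 members on a log axis, with a point for each of the 4 recovered, 6 pre-leukemic and 3 healthy libraries and a bar at each group's mean over samples. For every gene the pre-leukemic points lie above all recovered and healthy points, on the FPKM scale as deposited.

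H2-K1 (GRCm38 chromosome 17, 33996017 to 34000347, minus strand) encodes the classical heavy chain K, which presents peptides to CD8 T cells. It was at 654.2, 704.7, 1393 and 691.4 FPKM in the recovered libraries, at 4414 (lowest), 4689 (median) and 5202 (highest) in the pre-leukemic libraries and at 312.2, 357.3 and 324.9 in the healthy libraries. The groups did not overlap, and recovered 3 stood well above the other recovered libraries. The change was 3.81 ± 0.23 in pre-leukemic against healthy samples (limma, adjusted p = 9.65e-08), -2.54 ± 0.18 in recovered against pre-leukemic samples (1.49e-07) and 1.27 ± 0.24 in recovered against healthy samples (0.0146). The last call, from limma, was lost on the TPM scale (1.07, adjusted p = 0.164), in a fit of only both groups (1.27, 0.279) and without healthy 2 (1.35, 0.135).

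H2-D1 (chromosome 17, 35262730 to 35267499, plus strand) encodes the other classical heavy chain of this strain, D. It was at 1020, 1217, 725.8 and 716.2 FPKM in the recovered libraries, at 1624, 1795 and 2115 (lowest, median and highest) in the pre-leukemic libraries and at 573.2, 584.5 and 502.0 in the healthy libraries. The 3 groups did not overlap, with recovered libraries between the other groups. Its change was 1.70 ± 0.20 in pre-leukemic against healthy samples (limma, adjusted p = 2.96e-05), the smallest of the 9 after H2-T23, and -1.03 ± 0.16 in recovered against pre-leukemic samples (0.000156). The change in recovered against healthy samples was 0.68 ± 0.21 and was not called (0.124). On the TPM scale the values were 0.03 (0.954) and 0.44 (0.264) for the first pair of comparisons, where the medians of all genes were -1.08 and 0.58.

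H2-Q4 (chromosome 17, 35379617 to 35385290, plus strand) belongs to the Q region of nonclassical heavy chains. It was at 8.52, 15.0, 2.68 and 1.43 FPKM in the recovered libraries, at 17.5, 20.3 and 27.6 (lowest, median and highest) in the pre-leukemic libraries and at 0.186, 0.291 and 0 in the healthy libraries. The healthy values lay below the 0.953 to 1.16 FPKM that 3 reads on 1 kb were worth there, and recovered libraries spread widely without reaching either neighbouring group. The change was 4.20 ± 0.63 in pre-leukemic against healthy samples (limma, adjusted p = 0.000215), -1.84 ± 0.50 in recovered against pre-leukemic samples (0.00944) and 2.35 ± 0.67, not called, in recovered against healthy samples (0.0891).

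H2-Q6 (chromosome 17, 35424850 to 35430055, plus strand) and H2-Q7 (chromosome 17, 35439155 to 35443773, plus strand) are near-identical neighbours that encode Qa-2, a nonclassical class I antigen found at the surface of leukocytes and held there by a lipid anchor. H2-Q6 was at 5.82, 17.3, 26.03 and 4.05 FPKM in the recovered libraries, at 171.2, 254.3 and 307.1 (lowest, median and highest) in the pre-leukemic libraries and at 2.30, 2.41 and 2.05 in the healthy libraries. H2-Q7 was at 34.4, 9.30, 135 and 36.7 FPKM in the recovered libraries, at 731.9, 764.2 and 815.5 in the pre-leukemic libraries and at 9.59, 1.11 and 9.84 in the healthy libraries. All pre-leukemic libraries were far above the rest for both genes, and H2-Q7 in recovered 2 lay within the healthy range. Their changes in pre-leukemic against healthy samples, 6.25 ± 0.55 for H2-Q6 (limma, adjusted p = 2.45e-06) and 7.34 ± 0.72 for H2-Q7 (5.82e-06), were the largest of the 9 members on both scales. In recovered against pre-leukemic samples H2-Q6 changed by -4.45 ± 0.43 (2.38e-06) and H2-Q7 by -4.38 ± 0.57 (3.22e-05). In recovered against healthy samples neither was called, at 1.79 ± 0.58 (0.134) and 2.96 ± 0.76 (0.0586).

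Their coding sequences were 95.4% identical, and 56.5% of the 50-base windows of H2-Q7 and 36.8% of those of H2-Q6 occurred in another gene's transcripts. The sources used here do not say how the authors' counting split such reads. Each gene of the pair is therefore uncertain on its own, and their sum is less so. That sum was 26.6 to 161 FPKM in recovered, 950.6 to 1115 in pre-leukemic and 3.52 to 11.9 in healthy libraries, with no overlap between the groups. The other heavy chains shared 12.8% (H2-K1) to 29.6% (H2-T23) of their windows with another gene, and H2-K1 and H2-D1 were 91.5% identical. B2m and Psmb8 shared none, and Tap1 shared 1.18%, all with Tap2.

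H2-T23 (chromosome 17, 36029773 to 36032855, minus strand) encodes Qa-1, the nonclassical heavy chain that shows signal peptides of other class I chains to the Klrd1 receptor of natural killer cells. It was at 76.7, 57.7, 35.3 and 69.1 FPKM in the recovered libraries, at 177.4, 189.4 and 243 (lowest, median and highest) in the pre-leukemic libraries and at 60.6, 98.2 and 55.5 in the healthy libraries. Recovered and healthy libraries overlapped, and both lay below every pre-leukemic library. The change was 1.38 ± 0.34 in pre-leukemic against healthy samples (limma, adjusted p = 0.00726), -1.77 ± 0.27 in recovered against pre-leukemic samples (0.000123) and -0.39 ± 0.36 in recovered against healthy samples (0.663). On the TPM scale the first was -0.28 (0.663) and the second -0.31 (0.543), neither called.

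B2m (chromosome 2, 122147686 to 122153083, plus strand) encodes the light chain without which heavy chains do not reach the surface, and it was the most abundant member in every library. It was at 1724, 2050, 2164 and 1793 FPKM in the recovered libraries, at 9318, 13370 and 16850 (lowest, median and highest) in the pre-leukemic libraries and at 1288, 1179 and 1338 in the healthy libraries. The groups did not overlap, and the recovered libraries lay close together. Its change was 3.42 ± 0.18 in pre-leukemic against healthy samples (limma, adjusted p = 1.77e-08) and -2.79 ± 0.14 in recovered against pre-leukemic samples (5.73e-09). In recovered against healthy samples the change of 0.63 ± 0.19 was not called (0.109).

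Tap1 (chromosome 17, 34187553 to 34197225, plus strand) encodes a subunit of the peptide transporter. It was at 23.8, 1.47, 4.35 and 3.12 FPKM in the recovered libraries, at 80.4, 100.6 and 118.5 (lowest, median and highest) in the pre-leukemic libraries and at 10.5, 11.1 and 10.4 in the healthy libraries. Recovered 1 was above the healthy range and the other 3 recovered libraries were below it. The change was 3.08 ± 0.64 in pre-leukemic against healthy samples (limma, adjusted p = 0.00251, and 0.148 on the TPM scale, where the change was 1.47) and -4.03 ± 0.51 in recovered against pre-leukemic samples (2.51e-05). In recovered against healthy samples it was -0.96 ± 0.68 and not called (0.543), while without recovered 1 it was -1.63 and called (0.0463). Tap2, which encodes the other subunit, was at 5.96 to 16.5 FPKM in recovered, 7.87 to 13.9 in pre-leukemic and 3.80 to 5.31 in healthy libraries. Tap2 was called in none of the comparisons, at 0.94 ± 0.48 (0.162) in pre-leukemic against healthy, -0.04 ± 0.38 (0.944) in recovered against pre-leukemic and 0.90 ± 0.51 (0.412) in recovered against healthy samples.

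Psmb8 (chromosome 17, 34197721 to 34201454, plus strand) encodes the immunoproteasome subunit that takes the place of Psmb5. It was at 37.0, 42.3, 77.5 and 17.4 FPKM in the recovered libraries, at 426.9, 512.4 and 595.6 (lowest, median and highest) in the pre-leukemic libraries and at 17.7, 32.9 and 16.4 in the healthy libraries. Recovered and healthy libraries overlapped, and both were far below the pre-leukemic libraries. The change was 4.35 ± 0.43 in pre-leukemic against healthy samples (limma, adjusted p = 6.79e-06), -3.68 ± 0.34 in recovered against pre-leukemic samples (1.53e-06) and 0.67 ± 0.46, not called, in recovered against healthy samples (0.523).

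**Figure D2:**
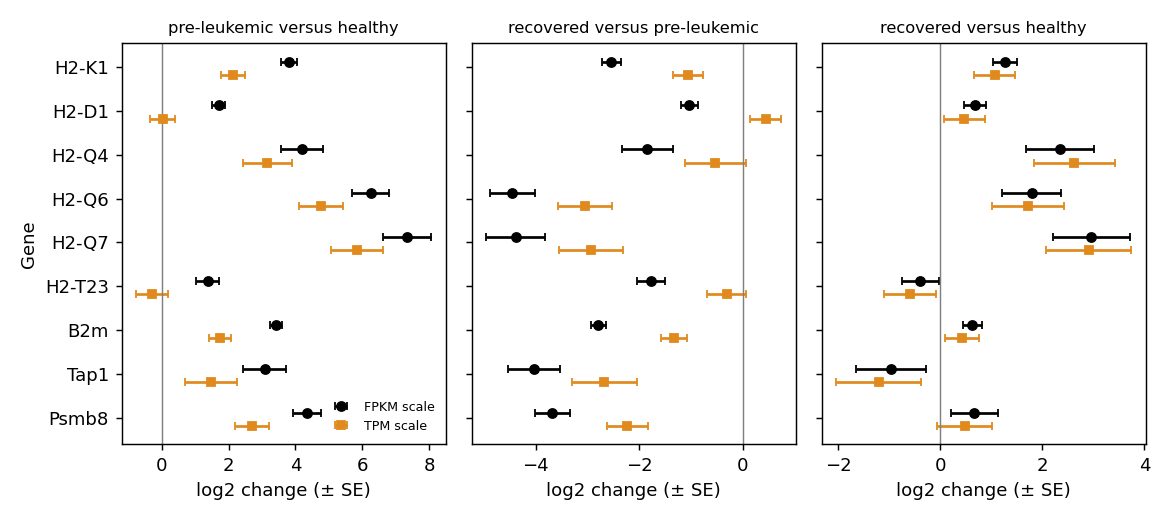
Log2 change of each of the 9 members with its standard error in the 3 comparisons, from limma on log2(FPKM + 1) (circles) and on the TPM scale (squares). On the TPM scale changes in pre-leukemic against healthy samples were smaller, H2-D1 was at 0.03 and H2-T23 at -0.28, and H2-D1 was at 0.44 in recovered against pre-leukemic samples.

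The make-up of the heavy chain signal also differed between the groups, and it does not depend on how libraries were scaled. H2-K1 was 34.9 to 60.1% of the summed FPKM of the 6 heavy chains in recovered, 59.1 to 62.4% in pre-leukemic and 32.6 to 36.3% in healthy libraries. H2-D1 was 31.3 to 60.2% in recovered, 21.1 to 25% in pre-leukemic and 56.0 to 59.8% in healthy libraries. The leading heavy chain was thus H2-K1 in all 6 pre-leukemic libraries and in recovered 3, and H2-D1 in the other recovered and all healthy libraries. H2-Q6 and H2-Q7 together were 1.31 to 6.95% in recovered, 11.4 to 14.5% in pre-leukemic and 0.338 to 1.33% in healthy libraries. H2-T23 was 1.52 to 4.55% in recovered, 2.3 to 2.9% in pre-leukemic and 6.2 to 9.41% in healthy libraries, so its share was lower in every pre-leukemic library than in any healthy library although its FPKM was higher. The 9 members summed to 0.478 to 0.595% of all FPKM outside the immunoglobulin genes in recovered, 3.21 to 4.64% in pre-leukemic and 0.362 to 0.375% in healthy libraries.

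**Figure D3:**
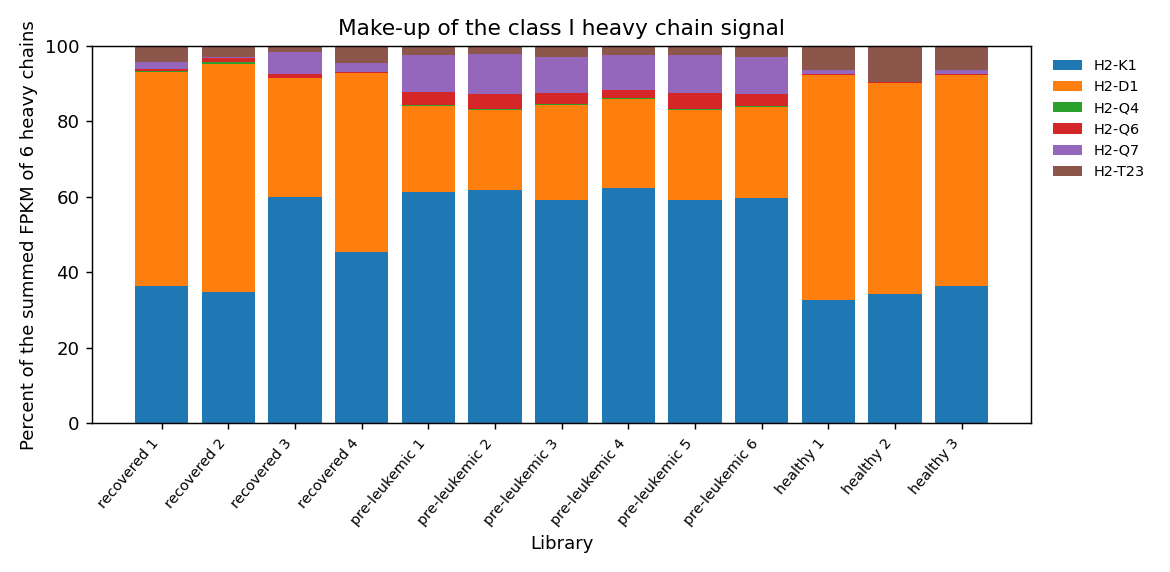
Share of each heavy chain in the summed FPKM of the 6 heavy chains, as stacked bars for 4 recovered, 6 pre-leukemic and 3 healthy libraries. H2-K1 held 59.1 to 62.4% in the pre-leukemic libraries and 60.1% in recovered 3, while H2-D1 was the largest share in the other recovered and in the healthy libraries.

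Ratios of genes within a library were compared by an exact two-sided permutation test over samples of the log2 ratio of FPKM + 1, with Benjamini-Hochberg adjustment over 12 tests. With 2 healthy samples the smallest p possible was 0.0714 for pre-leukemic and 0.133 for recovered against healthy samples, so no ratio could pass there. H2-K1 to H2-D1 was 0.579 to 1.92 in recovered, 2.37 to 2.94 in pre-leukemic and 0.545 to 0.648 in healthy libraries. Its log2 difference was -1.51 in recovered against pre-leukemic samples (exact permutation p = 0.00952, adjusted 0.0381) and 2.10 in pre-leukemic against healthy samples (exact permutation p = 0.0714, adjusted 0.143). B2m to H2-K1 was 1.55 to 2.91 in recovered, 2.11 to 3.36 in pre-leukemic and 3.29 to 4.11 in healthy libraries, and its difference of -0.26 in recovered against pre-leukemic samples did not pass (exact permutation p = 0.267, adjusted 0.356).

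The immunoproteasome was set against the constitutive subunits it replaces. Psmb8 to Psmb5 was 0.0495 to 0.278 in recovered, 1.72 to 6.77 in pre-leukemic and 0.0715 to 0.149 in healthy libraries, so Psmb8 exceeded Psmb5 in all 6 pre-leukemic libraries and in no other library. The log2 difference was -4.33 in recovered against pre-leukemic samples (exact permutation p = 0.00952, adjusted 0.0381) and 4.74 in pre-leukemic against healthy samples (exact permutation p = 0.0714, adjusted 0.143). Psmb10 to Psmb7 was 0.289 to 1.31 in recovered, 2.03 to 4.93 in pre-leukemic and 0.3 to 0.498 in healthy libraries, the highest recovered ratio being that of recovered 1. Its difference was -2.21 in recovered against pre-leukemic samples (exact permutation p = 0.00952, adjusted 0.0381) and 3.10 in pre-leukemic against healthy samples (exact permutation p = 0.0714, adjusted 0.143). Psmb5 shared 65.0% of its 50-base windows with other transcripts, mostly those of Gm3375, so its level is uncertain, whereas Psmb7, Psmb8 and Psmb10 shared none. In recovered against pre-leukemic samples the 3 ratios that passed, H2-K1 to H2-D1, Psmb8 to Psmb5 and Psmb10 to Psmb7, no longer passed when any 1 recovered library (adjusted p = 0.0952 in the exact permutation test) or any 1 pre-leukemic library (0.0635) was left out. Their log2 differences were then -1.87 to -1.29 for H2-K1 to H2-D1, -4.67 to -3.84 for Psmb8 to Psmb5 and -2.54 to -1.81 for Psmb10 to Psmb7. The smallest exact permutation p those sample numbers allow is 0.0238 without a recovered and 0.0159 without a pre-leukemic library.

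**Figure D4:**
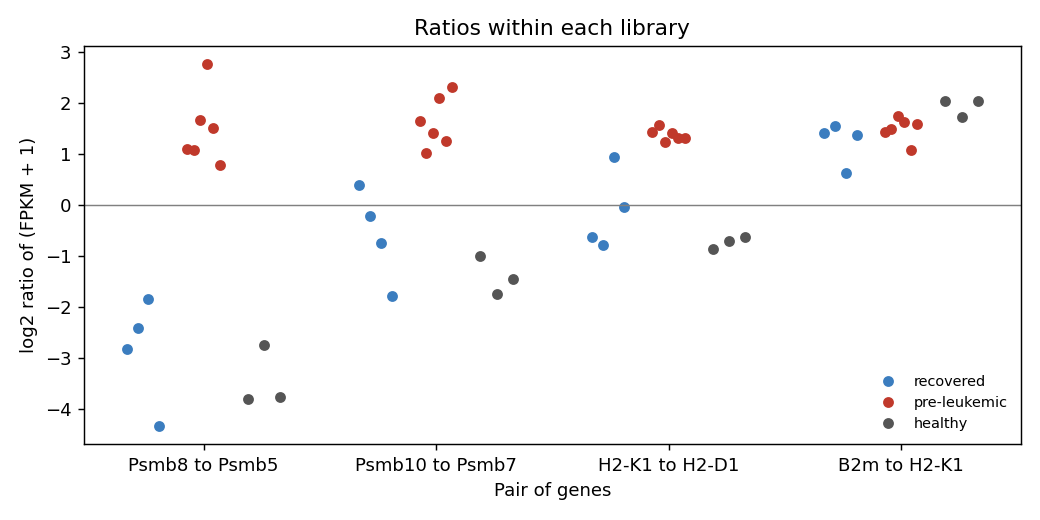
Log2 ratio of FPKM + 1 within each library for 4 pairs of genes, with a point for each of the 4 recovered, 6 pre-leukemic and 3 healthy libraries. Psmb8 to Psmb5, Psmb10 to Psmb7 and H2-K1 to H2-D1 were higher in every pre-leukemic library than in any other, and B2m to H2-K1 overlapped between recovered and pre-leukemic libraries.

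The other genes of the pathway were taken from lists, and in recovered against healthy samples Psme2 was the 1 gene of these lists that was called. The list medians below stand beside medians of 0.20 in pre-leukemic against healthy and -0.41 in recovered against pre-leukemic samples over all genes. The list counts stand beside 14.2% of all genes called higher and 13.1% lower in the first comparison, and 14.8% higher and 25.1% lower in the second. Some list genes, such as H2-Q2, H2-Q5 and Ifng, passed the filter on low values only through the pre-leukemic libraries, which favoured their direction in advance. Of the remaining class I heavy chains, in pre-leukemic against healthy samples 5 of 7 tested rose and none fell (on the TPM scale 2 rose and 1 fell), and in recovered against pre-leukemic samples 4 fell and none rose (on the TPM scale 2 fell). The median changes were 2.43 and -1.57. H2-Q5, a Q-region gene annotated as a polymorphic pseudogene, was at 0, 0, 1.74 and 0.318 FPKM in the recovered libraries, at 14.8, 26.2 and 34.5 (lowest, median and highest) in the pre-leukemic libraries and at 1.17, 0 and 0.325 in the healthy libraries. It changed by 4.26 ± 0.55 in pre-leukemic against healthy samples (limma, adjusted p = 6.35e-05) and by -4.20 ± 0.44 in recovered against pre-leukemic samples (4.29e-06), and both calls held on the TPM scale. H2-M3, which presents formylated peptides, changed by 2.65 ± 0.66 (0.00831) in pre-leukemic against healthy and by -1.99 ± 0.52 (0.00788) in recovered against pre-leukemic samples, and neither was called on the TPM scale. H2-Q2 was listed at 0 in pre-leukemic 6 and in all recovered and healthy libraries, at 1.78 FPKM in pre-leukemic 5 and at 6.46 to 12.6 FPKM in the other pre-leukemic libraries. Its groups overlapped, and its limma call in pre-leukemic against healthy samples (adjusted p = 0.0328) was kept in 17 of 24 alternatives, with adjusted p up to 0.193.

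The class I-like genes share the fold of the heavy chains and do not present ordinary peptides. Of 5 tested, 3 fell and none rose in pre-leukemic against healthy samples on either scale, and 2 rose and 1 fell in recovered against pre-leukemic samples (on the TPM scale 3 rose). The median changes were -2.38 and 1.41. Fcgrt, the neonatal Fc receptor that pairs with B2m and recycles antibodies, was at 74.5, 129.5, 44.7 and 54.6 FPKM in the recovered libraries, at 2.91, 4.29 and 6.22 (lowest, median and highest) in the pre-leukemic libraries and at 85.4, 87.4 and 84.2 in the healthy libraries. It changed by -4.02 ± 0.47 in pre-leukemic against healthy samples (limma, adjusted p = 2.69e-05) and by 3.72 ± 0.37 in recovered against pre-leukemic samples (2.96e-06). Procr, the endothelial protein C receptor, changed by -2.38 ± 0.46 (0.00146) and 4.18 ± 0.36 (8.28e-07) in the same comparisons. Hfe, which regulates iron uptake with B2m, fell in pre-leukemic against healthy samples (-3.07 ± 0.98, 0.0311), a call kept in 20 of 25 alternatives. Mr1, which presents vitamin metabolites, fell in recovered against pre-leukemic samples (-1.69 ± 0.59, 0.0335), a call kept in 12 of 24 alternatives and lost on the TPM scale among others (-0.72, 0.429).

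Among 8 genes of peptide trimming and loading, 3 rose and 1 fell in pre-leukemic against healthy samples, and on the TPM scale none rose and 3 fell. Tapbpl, an editor of bound peptides, rose by 2.49 ± 0.46 (limma, adjusted p = 0.00102), the trimming enzyme Erap1 by 2.41 ± 0.61 (0.00902) and tapasin, Tapbp, by 1.49 ± 0.40 (0.0126), and none of the 3 calls held on the TPM scale. Calr, the chaperone calreticulin, fell by 0.97 ± 0.32 (0.0346) in pre-leukemic against healthy samples and rose by 1.98 ± 0.25 (2.56e-05) in recovered against pre-leukemic samples, and both calls held on the TPM scale. The first of them was kept in 18 of 25 alternatives, with adjusted p up to 0.174, and the second in all 25. In recovered against pre-leukemic samples 1 of the 8 rose and 2 fell, and on the TPM scale 4 rose and none fell. The median changes were 0.77 and -0.09.

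Of 6 genes of the immunoproteasome, its assembly and the proteasome activators, 3 rose and none fell in pre-leukemic against healthy samples, and none was called on the TPM scale. In recovered against pre-leukemic samples 2 fell and none rose (on the TPM scale 3 rose and none fell), and the median changes were 1.67 and -0.47. Psmb10 was at 50.8, 43.0, 129.4 and 24.9 FPKM in the recovered libraries, at 171.7, 195.1 and 246.6 (lowest, median and highest) in the pre-leukemic libraries and at 37.8, 20.96 and 30.9 in the healthy libraries. It changed by 2.83 ± 0.47 in pre-leukemic against healthy samples (limma, adjusted p = 0.000453, and 0.0904 on the TPM scale) and by -1.92 ± 0.37 in recovered against pre-leukemic samples (0.000948, and 0.412 on the TPM scale). Psme1 and Psme2 form the activator PA28. Psme1 rose by 1.55 ± 0.43 (0.0154) and Psme2 by 2.04 ± 0.34 (0.000474) in pre-leukemic against healthy samples. Psme2 alone of the 6 was called in recovered against healthy samples (2.07 ± 0.36, 0.00806), at 235.5 to 399.1 FPKM in recovered and 51.2 to 121.5 FPKM in healthy libraries, and it was not called on the TPM scale.

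The constitutive core of the proteasome is present in all cells. Of its 14 genes 5 rose and none fell in pre-leukemic against healthy samples, and 2 fell and none rose in recovered against pre-leukemic samples. On the TPM scale none rose and 3 fell in the first comparison, and 7 rose and none fell in the second. The median changes were 0.84 and -0.47. Psmb5, Psmb6 and Psmb7 were not called in pre-leukemic against healthy samples, at -0.39 ± 0.41 (limma, adjusted p = 0.508), 0.54 ± 0.31 (0.217) and -0.27 ± 0.53 (0.746). Psma4 rose by 2.0 ± 0.47 (0.00566), Psma1 by 1.86 ± 0.43 (0.00509) and Psma6 by 1.23 ± 0.41 (0.0367) in pre-leukemic against healthy samples. In recovered against pre-leukemic samples Psma1 fell by 2.19 ± 0.34 (0.000152) and Psma2 by 1.86 ± 0.30 (0.00023). None of these calls of Psma genes held on the TPM scale, and that of Psma6 was kept in 18 of 25 alternatives.

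Of 22 regulators, 8 rose and 2 fell in pre-leukemic against healthy samples (on the TPM scale 4 rose and 6 fell), and 3 rose and 10 fell in recovered against pre-leukemic samples (on the TPM scale 8 rose and 4 fell). The median changes were 1.0 and -0.94. Nlrc5, the transactivator that drives class I promoters, was at 2.29, 0.763, 104.1 and 6.55 FPKM in the recovered libraries, at 87.9, 100.5 and 155.9 (lowest, median and highest) in the pre-leukemic libraries and at 0.373, 0.715 and 0.415 in the healthy libraries. Recovered 3 lay inside the pre-leukemic range and the other recovered libraries far below it. Nlrc5 changed by 6.14 ± 1.05 in pre-leukemic against healthy samples (limma, adjusted p = 0.000585) and by -3.73 ± 0.83 in recovered against pre-leukemic samples (0.00261), and both calls held on the TPM scale. Ifng, interferon gamma, the main cytokine inducer of the immunoproteasome, was listed at 0 in all recovered and healthy libraries and at 8.26, 19.7 and 28.6 FPKM (lowest, median and highest) in the pre-leukemic libraries (adjusted p = 3.93e-05 against healthy and 2.22e-06 against recovered samples). Irf8, an interferon regulatory factor of blood cells, rose by 5.91 ± 0.74 (4.58e-05) in pre-leukemic against healthy and fell by 4.33 ± 0.58 (4.67e-05) in recovered against pre-leukemic samples.

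Irf1, which binds the interferon-type elements printed above, was at 181.3 to 377.8 FPKM in recovered, 178.7 to 235.5 in pre-leukemic and 148.6 to 241.3 in healthy libraries, and the groups overlapped. Its change was 0.11 ± 0.29 (0.815) in pre-leukemic against healthy samples, and on the TPM scale it was called lower (-1.55, 0.0104). The 2 regulators that fell in pre-leukemic against healthy samples, named after their values were seen, were Socs1, an inhibitor of cytokine signalling (-3.07 ± 0.61, 0.00176), and Ifngr2, a chain of the interferon gamma receptor (-2.45 ± 0.50, 0.00227).

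Of 17 genes listed as class I receptors and ligands, most of them of T and natural killer cells, 6 passed the filter on low values. Of these 4 rose and 1 fell in pre-leukemic against healthy samples, and 4 fell and none rose in recovered against pre-leukemic samples (on the TPM scale 4 fell and 1 rose). The 4 that rose passed that filter only through the pre-leukemic libraries, so their direction was favoured in advance. Their calls and the list medians are therefore given as description and not as support. The median changes were 3.33 and -3.34. Klrd1, the receptor chain that binds Qa-1, was at 0, 0, 1.44 and 0 FPKM in the recovered libraries, at 2.08, 17.4 and 54.3 (lowest, median and highest) in the pre-leukemic libraries and at 0 in all healthy libraries (limma, adjusted p = 0.00874 in pre-leukemic against healthy and 0.00227 in recovered against pre-leukemic samples). Cd8b1, a chain of the CD8 co-receptor that binds class I, was at 0 to 0.506 FPKM in recovered, 3.29 to 24.6 in pre-leukemic and 0 to 0.258 in healthy libraries, and it changed by 3.52 ± 0.64 (0.000963) and -3.45 ± 0.51 (9.4e-05) in the same comparisons. Lilrb4, an inhibitory receptor of myeloid cells, was at 0, 19.7, 0 and 1.15 FPKM in the recovered libraries, at 21.5 to 34.9 in pre-leukemic libraries and at 0 in all healthy libraries, so recovered 2 stood apart from the other recovered libraries. Recovered 2 also had the most Ptprc of them, while its pan-leukocyte marker sum of 82.3 FPKM was below those of recovered 3 (287) and recovered 4 (131). Lilrb4 was called higher in pre-leukemic against healthy samples (0.00104) and lower in recovered against pre-leukemic samples (-3.46 ± 0.70, 0.00138).

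**Figure D5:**
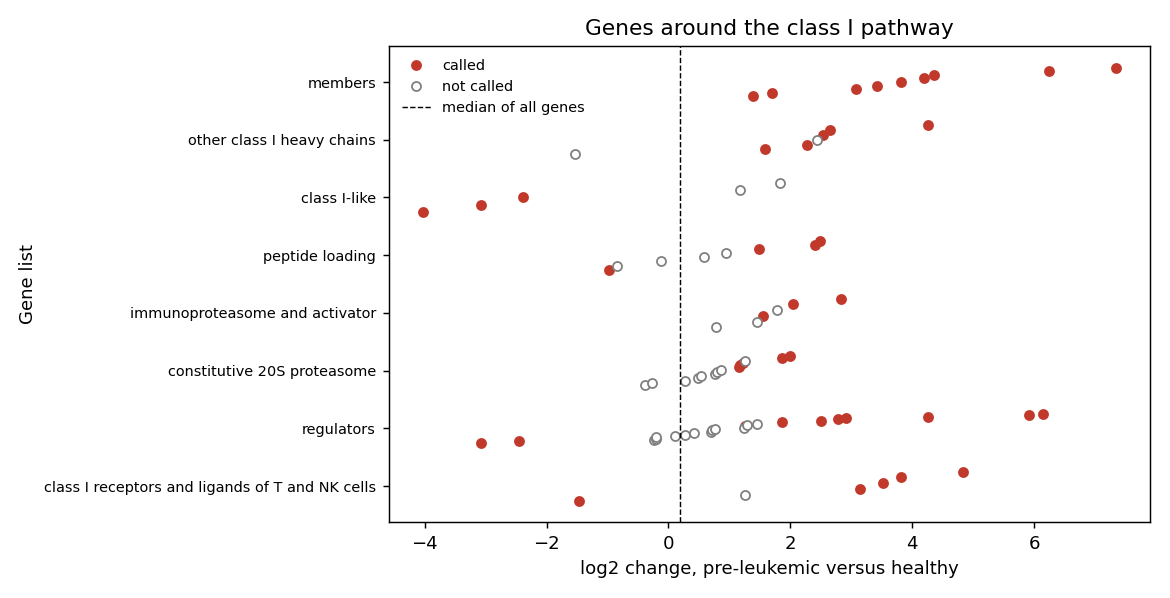
Log2 change in pre-leukemic against healthy samples of the 9 members and of 7 other lists of the pathway, 1 point a gene tested, filled where limma called it on the FPKM scale. The median of all genes was 0.20 (dashed line). All members and 5 of 7 other heavy chains were called higher, and 3 of 5 class I-like genes lower, while on the TPM scale 6 members and 2 other heavy chains were called higher. Over all genes tested, 14.2% were called higher and 13.1% lower on the FPKM scale.

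The recovered libraries differed among themselves, and the members did not vary as 1 block. Recovered 3 had the highest recovered H2-K1, H2-Q6, H2-Q7, B2m and Psmb8 and the lowest H2-T23. Recovered 2 had the highest H2-D1 and H2-Q4, and recovered 1 the highest Tap1. Pan-leukocyte markers summed to 76.6 FPKM in recovered 1, 82.3 in recovered 2, 287 in recovered 3 and 131 in recovered 4, and endothelial markers summed to 149 FPKM in recovered 3 and 3.1 to 22.4 in the other recovered libraries. In recovered 3 Emcn alone was at 140.2 FPKM of that endothelial sum. Pecam1, Cdh5, Kdr and Tek were at 0.312 FPKM at most there, and Eng, also on the stromal list, was at 8.44 FPKM. The part of leukocyte or endothelial RNA in the recovered 3 values was not tested. Without recovered 2 and 3, a choice made after seeing the data, all 9 members were still called lower in recovered against pre-leukemic samples, and 2 were called higher in recovered against healthy samples. Of the 13118 genes tested, 2758 were called lower in the first and 114 higher in the second of these comparisons.

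The genes outside the members whose profiles over the 12 samples were most like H2-K1, by the root mean square difference of centred log2(FPKM + 1), were Ccdc88b (0.321), Dusp2 (0.374) and Txndc5 (0.39). Txndc5, a disulfide isomerase of the endoplasmic reticulum, averaged 131.9 FPKM in recovered, 977.7 in pre-leukemic and 86.5 in healthy samples. Dusp2, a phosphatase that acts on MAP kinases, averaged 19.2 FPKM in recovered, 117.1 in pre-leukemic and 8.97 in healthy samples. For Psmb8 the nearest were Cd84, a leukocyte surface receptor (0.386), the adhesion gene Epcam (0.393) and Gm21975 (0.465).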

How the data were processed

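Poly-A RNA of sorted cells had been made into Nextera XT libraries, per the labels. The authors deposited 1 table of FPKM values per gene and library, made with Cufflinks 2.2.1 and Cuffnorm after TopHat and bcl2fastq on mm10, as far as the submitters' processing notes list tools and builds without their order. The sources used here give neither the annotation nor how libraries were scaled. All 13 columns were used. A row with no gene name summed to 0.0 and was left out. Low FPKM values were compared between libraries to estimate what 1 read was worth.

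Genes that reached 1 FPKM in 3 or more libraries entered the test. Their log2(FPKM + 1) values were fitted in R 4.3.3 by limma 3.58.1, using lmFit and then eBayes with a trend. A single fit over the 12 samples gave all 3 comparisons, and p-values were adjusted by the Benjamini-Hochberg method over the 13118 genes, with calls under 0.05. Healthy 1 and 3 entered as their mean. The fit and the permutation test were tested on simulated data. Ratios, sums and figures were made in Python 3.11.15 (Biopython 1.88, matplotlib 3.10.9, scipy 1.17.1, pandas 2.3.3, numpy 2.4.6). Gene positions and coding sequences came from GENCODE vM21 on GRCm38, which held 32082 of the 33432 genes by name, and promoters from RefSeq on GRCm38.p6.

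The members and gene lists were chosen with earlier results of these data known. The genes named are the members, 11 genes of the pathway and of the marker lists, up to 3 called genes with the largest change for each list and comparison, and the 3 genes nearest in profile to H2-K1 and to Psmb8. A gene that this rule names is not reported here. A ratio of Psmb9 to Psmb6 was not run, as Psmb9 was not analysed here. The alternatives were other library scalings (TPM, quantile, and equal sums without immunoglobulin genes), a pseudocount of 0.1, other filters, fits of only the groups compared, sample weights, robust variances, 13 separate libraries with and without the replicate number as a block, and each library left out in turn.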

Additional observations from a re-analysis of the deposited data

Results flagged for a closer look

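Over 28 sets of values (each member, each ratio and the share of H2-Q6 and H2-Q7, within the recovered or the pre-leukemic libraries), 2 held a library far from its group by Dixon's test at the 95% level, and chance gives about 1 in 20. H2-K1 was at 1393 FPKM in recovered 3, where the nearest recovered library was at 704.7 FPKM and that gap was 0.932 of the group's range, above the critical value of 0.829 for 4 samples. Tap1 was at 23.78 FPKM in recovered 1, where the nearest recovered library was at 4.35 FPKM and the gap was 0.871 of the range. Recovered 3 also had the highest pan-leukocyte marker sum of the recovered libraries (287 FPKM), and the lowest monocyte and macrophage marker sum (16.2 FPKM). Recovered 1 had the highest neutrophil marker sum (590 FPKM), of which S100a9 alone made 389.4 FPKM, while Elane, Mpo and Retnlg were at 0. Its pan-leukocyte sum (76.6 FPKM) and its T and natural killer cell sum (1.24 FPKM) were the lowest of the recovered libraries. The part of leukocyte RNA in the 2 flagged values was not tested.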

How the results depend on the processing

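In pre-leukemic against healthy and in recovered against pre-leukemic samples all 9 members were called under each alternative but the TPM scale, with 6 calls in each comparison. On that scale H2-T23 in pre-leukemic against healthy samples turned to -0.28 and H2-D1 in recovered against pre-leukemic samples to 0.44, while all other member changes kept their direction. Leaving out 1 library, the genes called in pre-leukemic against healthy samples numbered 1716 (without healthy 2) to 4112 (without recovered 3), against 3583. Recovered against healthy samples depended most on the settings, the main values being 1 member and 329 genes. Members called numbered 0 on the TPM scale and in a fit of only the groups compared, 2 with a pseudocount of 0.1, 3 with quantile normalization, 6 with 13 separate libraries, 2 without recovered 2 and 3 (chosen after seeing the data) and 0 (without healthy 2) to 3 (without recovered 4) with 1 library left out. Genes called numbered 211 with quantile normalization, 122 with a mean of at least 5 FPKM, 103 in a fit of only the groups compared, 163 with sample weights, 767 with 13 separate libraries and 82 (without healthy 2) to 682 (without recovered 1) with 1 library left out. With 13 separate libraries and the replicate block, 9, 9 and 2 members were called in the 3 comparisons and 3700, 4527 and 303 genes; deviations correlated over 0.1 in 0 of 10 pairs with the same number (-0.0194 to 0.0337), so the numbers do not pair the samples. Quantile normalization moved the median of all genes by -0.13 in pre-leukemic against healthy, 0.33 in recovered against pre-leukemic and 0.11 in recovered against healthy samples, where it called 2460 genes higher and 2424 lower in the second and 66 higher and 145 lower in the third, against 68 and 261 on the FPKM scale. Equal sums without immunoglobulin genes moved it by 0.11, -0.23 and -0.13 in the same order. The cause of these changes was not tested. In recovered against pre-leukemic samples the 3 ratios that passed lost their call in 10 of 15 alternatives each, those that left out a recovered or pre-leukemic library (adjusted p 0.0635 to 0.0952, exact permutation test). Without a recovered library no ratio could pass after adjustment, and without a pre-leukemic library only if every ratio reached the smallest p possible. With 2 healthy samples the ratios cannot pass a test against them, and H2-Q4 in healthy libraries lay under the value of 3 reads.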
